A study of Mus musculus with 1600 samples.

Results

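The Notch genes described here are 9 of the 45792 genes measured in single cells of the mouse glomerulus, the filtering unit of the kidney. They are the receptors Notch1, Notch2, Notch3 and Notch4, the ligands Dll4 and Jag1, and the target genes Hes1, Hey1 and Heyl. They were chosen by name as core members of the pathway, and the gene identifiers of all 9 were found through GENCODE M21 (GRCm38). The diabetes group came from mice lacking endothelial nitric oxide synthase (eNOS-/-, the gene Nos3) on a C57BL/6 background made diabetic with streptozotocin, which destroys the beta cells of the pancreas; the dose was 50 µg per g per day for 5 days, begun when the mice were 8 weeks old. The control group came from eNOS-/- littermates of the same background and age that received the citrate vehicle alone, so the deletion is shared by both groups. Glomeruli were taken at 10 weeks of age. Each group had 2 pools of 3 mice, 1 pool in each of 2 experiments, and a single array of the Fluidigm C1 system carried both pools of an experiment in 400 wells each. A pool is the replicate throughout, so the spread between pools includes the spread between experiments.

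Notch signalling passes between touching cells: a Delta or Jagged ligand on the surface of a cell binds a Notch receptor on its neighbour, the receptor is cut by an ADAM protease and then by gamma-secretase, and the freed intracellular part joins the DNA-binding protein Rbpj and a Mastermind co-activator to switch on genes of the Hes and Hey families. In blood vessels Notch1, Notch4 and Dll4 are known from endothelial cells, where they take part in arterial identity and in sprouting. Notch3 is known from smooth muscle cells and pericytes, where Heyl is among the genes that follow it.

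Of 833 wells in which exactly 1 cell was imaged, 639 passed the filters (at least 500 genes detected and at most 30% mitochondrial reads): 128 and 188 in the diabetes pools of experiments 1 and 2, and 120 and 203 in the control pools. Their median depth was 43577 and 176715 reads in diabetes and 32222 and 219072 reads in control, so depth followed the experiment. Clusters were named from marker genes, which gave 335 endothelial-like, 122 mesangial-like, 73 immune-like and 52 podocyte-like wells, 22 wells with markers of smooth muscle or renin cells (smooth muscle/renin-like), and 35 wells left unnamed. The Notch genes were kept out of the clustering. The endothelial-like clusters had 13 of 14 endothelial markers, the mesangial-like cluster 10 of 10 mesangial markers and the smooth muscle/renin-like cluster 6 of 7 of its markers in at least 25% of wells. The names are rebuilt and may differ from those of the study. Wells imaged as empty held RNA too. The 184 and 98 such wells in diabetes had medians of 2397 and 32994 reads, and the 195 and 111 in control 2212 and 33610 reads. Their values are given as background for Notch1, Notch3, Notch4, Dll4, Jag1, Hes1 and Hey1, and not beside every class. Xist stood at 1.49 and 1.4 CPM (the reads of a gene scaled to the total reads of the summed wells) in diabetes and 355.9 and 442 CPM in control, and the Y-linked genes at 154.4 and 159.7 CPM in diabetes and 0.210 and 0.599 CPM in control, so sex and condition cannot be told apart although the design describes sex-matched mice. The conditions also lay on different sets of 10 array columns, in each experiment. Nos3 had 64.9 and 53.2 CPM in diabetes and 41.8 and 62.1 CPM in control; the labels do not say which part was deleted, so these reads do not check the genotype.

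Promoters of 3 receptors are shown because their transcripts fell in different cells: Notch1 and Notch4 in endothelial-like wells, Notch3 in smooth muscle/renin-like wells. Each runs from 250 bases before to 50 bases after the RefSeq start on GRCm38.p6, 5′ to 3′ along the gene. They lie at chr2:26503773-26504072 on the minus strand (Notch1), chr17:34564045-34564344 on the plus strand (Notch4) and chr17:32166841-32167140 on the minus strand (Notch3). Capitals mark the core letters bound by ETS factors, which include several regulators of endothelial genes (AGGAA, or TTCCT for the opposite strand), and the site of AP-1 (TGACTCA, or TGAGTCA).
Notch1: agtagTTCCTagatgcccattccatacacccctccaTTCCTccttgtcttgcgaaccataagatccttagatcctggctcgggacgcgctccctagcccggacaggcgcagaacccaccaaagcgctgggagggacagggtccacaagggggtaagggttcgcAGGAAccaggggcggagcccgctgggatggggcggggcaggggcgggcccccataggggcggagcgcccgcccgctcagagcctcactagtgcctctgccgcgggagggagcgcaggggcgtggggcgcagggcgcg
Notch4: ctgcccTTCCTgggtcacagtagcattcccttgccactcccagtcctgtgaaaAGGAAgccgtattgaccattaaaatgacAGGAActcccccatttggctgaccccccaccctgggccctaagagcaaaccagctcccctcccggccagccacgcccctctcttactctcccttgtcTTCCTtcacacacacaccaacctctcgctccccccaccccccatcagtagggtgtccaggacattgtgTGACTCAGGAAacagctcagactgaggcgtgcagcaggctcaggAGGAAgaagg
Notch3: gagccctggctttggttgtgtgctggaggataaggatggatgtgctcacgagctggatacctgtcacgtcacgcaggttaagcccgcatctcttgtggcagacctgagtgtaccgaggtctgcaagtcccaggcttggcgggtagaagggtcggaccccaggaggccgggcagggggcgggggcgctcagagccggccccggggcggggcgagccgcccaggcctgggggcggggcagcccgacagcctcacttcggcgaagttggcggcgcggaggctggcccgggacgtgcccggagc
The Notch1 window held 3 ETS cores with these letters, the Notch4 window 6, and the Notch3 window none. Other spellings of the core were not searched. The Notch4 window also held 1 AP-1 site, which begins at -4 from the start, shares its last base with the ETS core that begins at 3, and is a motif found in 5.2% of 32851 RefSeq promoters of the same length. An ETS core is common, with at least 1 in 66.7% of those promoters, and a match is only a match of letters. The core bound by Rbpj (TGGGAA or TTCCCA) is in 25.6% of promoters and in none of the 6 Notch gene windows that RefSeq gave here, namely those of the 4 receptors, Dll4 and Jag1. Jag1 had 2 ETS cores by the same letters, and Notch2 and Dll4 had none.

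Levels across cell classes are a description without a test, given as CPM of the reads summed over the wells of a class in a pool. Only pools with at least 5 wells of a class are used, and CPM is not divided by gene length, so values are compared across classes for a gene and not between genes. For 4 of the 9 genes the highest class was the same in every pool: Notch1, Notch4, Dll4 and Hey1 were highest in endothelial-like wells in 4 of 4 pools.

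Notch1, a receptor needed for vessel growth (chr2:26457903-26516663, minus strand), had 392.5 and 150.1 CPM in the diabetes pools and 444.7 and 195.1 CPM in the control pools in endothelial-like wells. Both pools of experiment 1 were higher than both pools of experiment 2. Its mean over the 4 pools was 295.6 ± 144.8 CPM (SD, n = 4 pools) in endothelial-like wells, 63.0 ± 46.0 CPM (SD, n = 4 pools) in mesangial-like wells and 2.64 ± 1.03 CPM (SD, n = 3 pools) in podocyte-like wells, the lowest class. Between these lay the smooth muscle/renin-like and immune-like wells, which did not differ from the mesangial-like wells beyond the spread between pools. Empty wells had 135.5 and 53.0 CPM of Notch1 in diabetes and 194.9 and 103.8 CPM in control. That range holds the mesangial-like mean, while the endothelial-like value was above the empty-well value in each pool.

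Notch4, a receptor known mainly from endothelium (chr17:34564268-34588503, plus strand), had 222.7 and 222.8 CPM in diabetes and 138.7 and 104.1 CPM in control in endothelial-like wells, 172.1 ± 60.2 CPM over all pools (SD, n = 4). Smooth muscle/renin-like wells came next at 73.8 ± 30.4 CPM (SD, n = 3), but there a single well gave from 92.1% to 100% of the Notch4 reads of each pool. Mesangial-like wells had 38.2 ± 27.1 CPM (SD, n = 4) and podocyte-like wells 10.0 ± 8.80 CPM (SD, n = 3).

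Notch3, the receptor of vascular smooth muscle and pericytes (chr17:32120820-32166852, minus strand), was lower in endothelial-like wells than in smooth muscle/renin-like ones. It had 393.3 CPM in the diabetes pool of experiment 2 and 289.7 and 179.8 CPM in the control pools in smooth muscle/renin-like wells, which numbered 5 in diabetes and 6 and 8 in control. In mesangial-like wells it had 27.2 and 74.5 CPM in diabetes and 41.2 and 98.7 CPM in control. In endothelial-like wells it was at 0 and 26.2 CPM in diabetes and at 1.49 and 2.4 CPM in control, and in the diabetes pool of experiment 2 a single well gave 49.7% of those reads. All 3 smooth muscle/renin-like values lay above all 4 mesangial-like values. Empty wells had 0 and 86.5 CPM of Notch3 in diabetes and 11.9 and 27.8 CPM in control. In the diabetes pool of experiment 2 the empty wells were thus above the mesangial-like and endothelial-like values.

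Notch2, a receptor found in many tissues (chr3:98013527-98150361, plus strand), was low and had no fixed order of classes. Its mesangial-like values were 75.7 and 17.2 CPM in diabetes and 28.4 and 9.08 CPM in control, and its podocyte-like mean was 22.6 ± 10.9 CPM (SD, n = 3). Endothelial-like wells were lowest by the mean, at 5.06 ± 5.19 CPM (SD, n = 4), a range that overlapped those of the mesangial-like and podocyte-like wells but not that of the immune-like wells, at 30.3 and 21.3 CPM in the diabetes pools.

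Among the ligands, Dll4, the Delta ligand of endothelial cells (chr2:119325784-119335962, plus strand), had 96.6 and 85.2 CPM in diabetes and 55.6 and 108.3 CPM in control in endothelial-like wells. The next class was mesangial-like, at 13.9 ± 13.7 CPM (SD, n = 4 pools), with no overlap between the classes, and the other classes averaged under 2 CPM. A gene on the opposite strand, Gm14207, overlaps Dll4; it had 8.10 and 1.62 CPM in diabetes and 1.49 and 9.48 CPM in control in the same wells, and whether the counting used strand is not stated. Jag1, a Jagged ligand (chr2:137081456-137116644, minus strand), followed the experiment: in endothelial-like wells it had 68.9 and 9.13 CPM in diabetes and 72.6 and 4.81 CPM in control. Its class means of 38.9 ± 36.9 CPM in endothelial-like wells, 32.3 ± 15.5 CPM in mesangial-like wells (SD, n = 4 pools each) and 27.6 ± 18.1 CPM in smooth muscle/renin-like wells (SD, n = 3) did not differ beyond their spread. Empty wells had 59.4 and 13.3 CPM of Jag1 in diabetes and 25.1 and 19.9 CPM in control. In both pools of experiment 2 this was above the endothelial-like value.

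Among the targets, Hes1, a transcriptional repressor that also answers to pathways other than Notch (chr16:30064384-30067796, plus strand), was read in all classes. It had 971.6 and 704 CPM in diabetes and 965 and 1059 CPM in control in endothelial-like wells, and its means in the smooth muscle/renin-like, mesangial-like and immune-like wells lay within the spread of these values. The mesangial-like mean rested on 2183 CPM in the control pool of experiment 1. Mesangial-like wells had 254.3 and 370.6 CPM in diabetes and 510.4 CPM in the control pool of experiment 2, below every endothelial-like pool. Smooth muscle/renin-like pools ran from 275.7 to 1354 CPM. Podocyte-like wells had the lowest mean, with 237.2 ± 137.5 CPM (SD, n = 3) against 924.9 ± 153.4 CPM in endothelial-like wells (SD, n = 4).

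Hey1, a repressor downstream of Notch in endothelium (chr3:8663359-8667256, minus strand), was read mainly in endothelial-like wells. It had 41.8 and 39 CPM in diabetes and 56.1 and 31.2 CPM in control there, against at most 0.637 CPM in mesangial-like wells and 4.64 CPM in immune-like wells. It was at 0 in all 3 podocyte-like and all 3 smooth muscle/renin-like sums; 3 reads in those sums would have been from 0.509 to 20.9 CPM. Heyl, a related repressor (chr4:123233556-123249875, plus strand), was read mainly in smooth muscle/renin-like wells, with 47.8 CPM in diabetes and 90.8 and 157.3 CPM in control in smooth muscle/renin-like wells, and at most 0.816 CPM in endothelial-like wells. Its mesangial-like values were uneven, at 84.8 and 0.371 CPM in diabetes and 0 and 9.49 CPM in control, and a single well gave 69.8% of the reads in the diabetes pool of experiment 1.

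**Figure D1:**
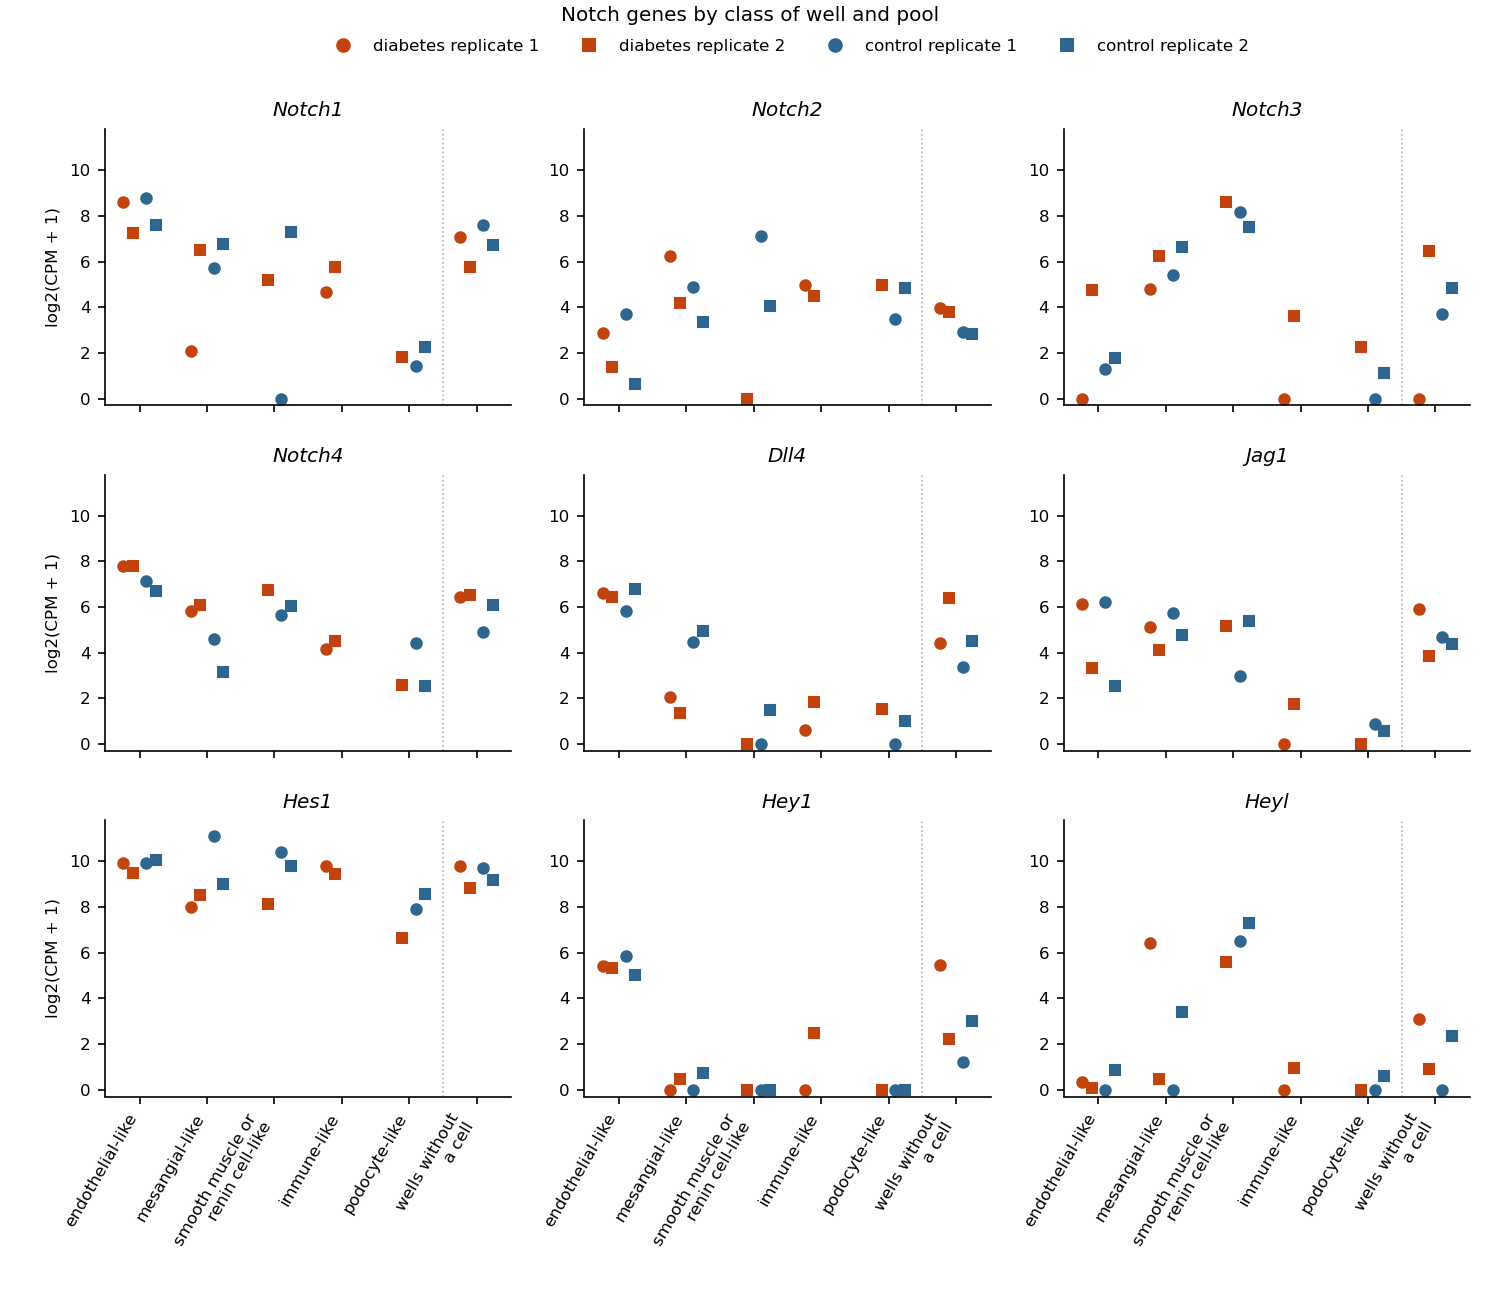
Level of each Notch gene as log2(CPM + 1) of the reads summed over the wells of a class (x axis), 1 point per pool with at least 5 wells; orange points are diabetes pools, blue points control pools, circles experiment 1 and squares experiment 2, and wells without a cell stand right of the dotted line. Among the named classes Notch1, Notch4, Dll4 and Hey1 are highest in endothelial-like wells, Notch3 and Heyl in smooth muscle/renin-like wells. Unnamed wells are not drawn.

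Depth was evened by drawing 2000 reads from each well that held at least that many, so that wells with and without an imaged cell could be set side by side. Shallower wells were left out: 105 of 184 and 98 of 98 empty wells stayed in diabetes and 103 of 195 and 111 of 111 in control, so the empty-well shares of experiment 1 come from its deeper empty wells. Of the endothelial-like wells 1 was left out, in the control pool of experiment 1. After this, Notch1 was detected in 42.9% and 22.6% of endothelial-like wells in diabetes and in 29.6% and 18.9% in control, against 21% and 9.18% of empty wells in diabetes and 20.4% and 11.7% in control. Before thinning the endothelial-like shares were 71.4% and 75.5% in diabetes and 60% and 70% in control. At 2000 reads the endothelial-like share of Notch1 exceeded the empty-well share of the same pool in 4 of 4 pools, by the widest margin in the diabetes pool of experiment 1. This order did not hold in every pool at 10000 reads. Endothelial-like wells then had 62.3% and 40.6% in diabetes and 54.35% and 36.7% in control. Empty wells deep enough had 64.3% (9 of 14) and 32.6% (30 of 92) in diabetes and 23.5% (4 of 17) and 40.95% (43 of 105) in control.

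For Dll4 the thinned shares were 14.3% and 10.4% of endothelial-like wells in diabetes and 16.7% and 12.2% in control, against 2.86% and 7.14% of empty wells in diabetes and 1.94% and 2.70% in control. For Hey1 they were 5.95% and 4.72% in diabetes and 7.41% and 6.67% in control, against at most 3.81% of empty wells in any pool. Both genes thus had a higher share in endothelial-like than in empty wells in 4 of 4 pools. For Hey1 this rests on few wells: 5 of 84 and 5 of 106 endothelial-like wells in diabetes and 4 of 54 and 6 of 90 in control. Its empty wells with a read were 4 of 105 and 0 of 98 in diabetes and 0 of 103 and 4 of 111 in control. By CPM the empty wells had 43.5 and 3.62 of Hey1 in diabetes and 1.32 and 7.01 in control. In the diabetes pool of experiment 1 this was above the endothelial-like 41.8 CPM. At 10000 reads Hey1 was in 3 of 14 empty wells there, against 8 of 77 endothelial-like wells. For Dll4 the empty wells had 20.3 and 84.1 CPM in diabetes and 9.26 and 21.8 CPM in control. The 84.1 CPM was near the endothelial-like 85.2 CPM of that pool. Hes1 was drawn in 54.8% and 49.1% of endothelial-like wells in diabetes and 46.3% and 51.1% in control, against 61.0% and 37.8% in diabetes and 35% and 46.9% in control for empty wells. These ranges overlap, so a Hes1 read by itself did not mark a well with a cell.

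**Figure D2:**
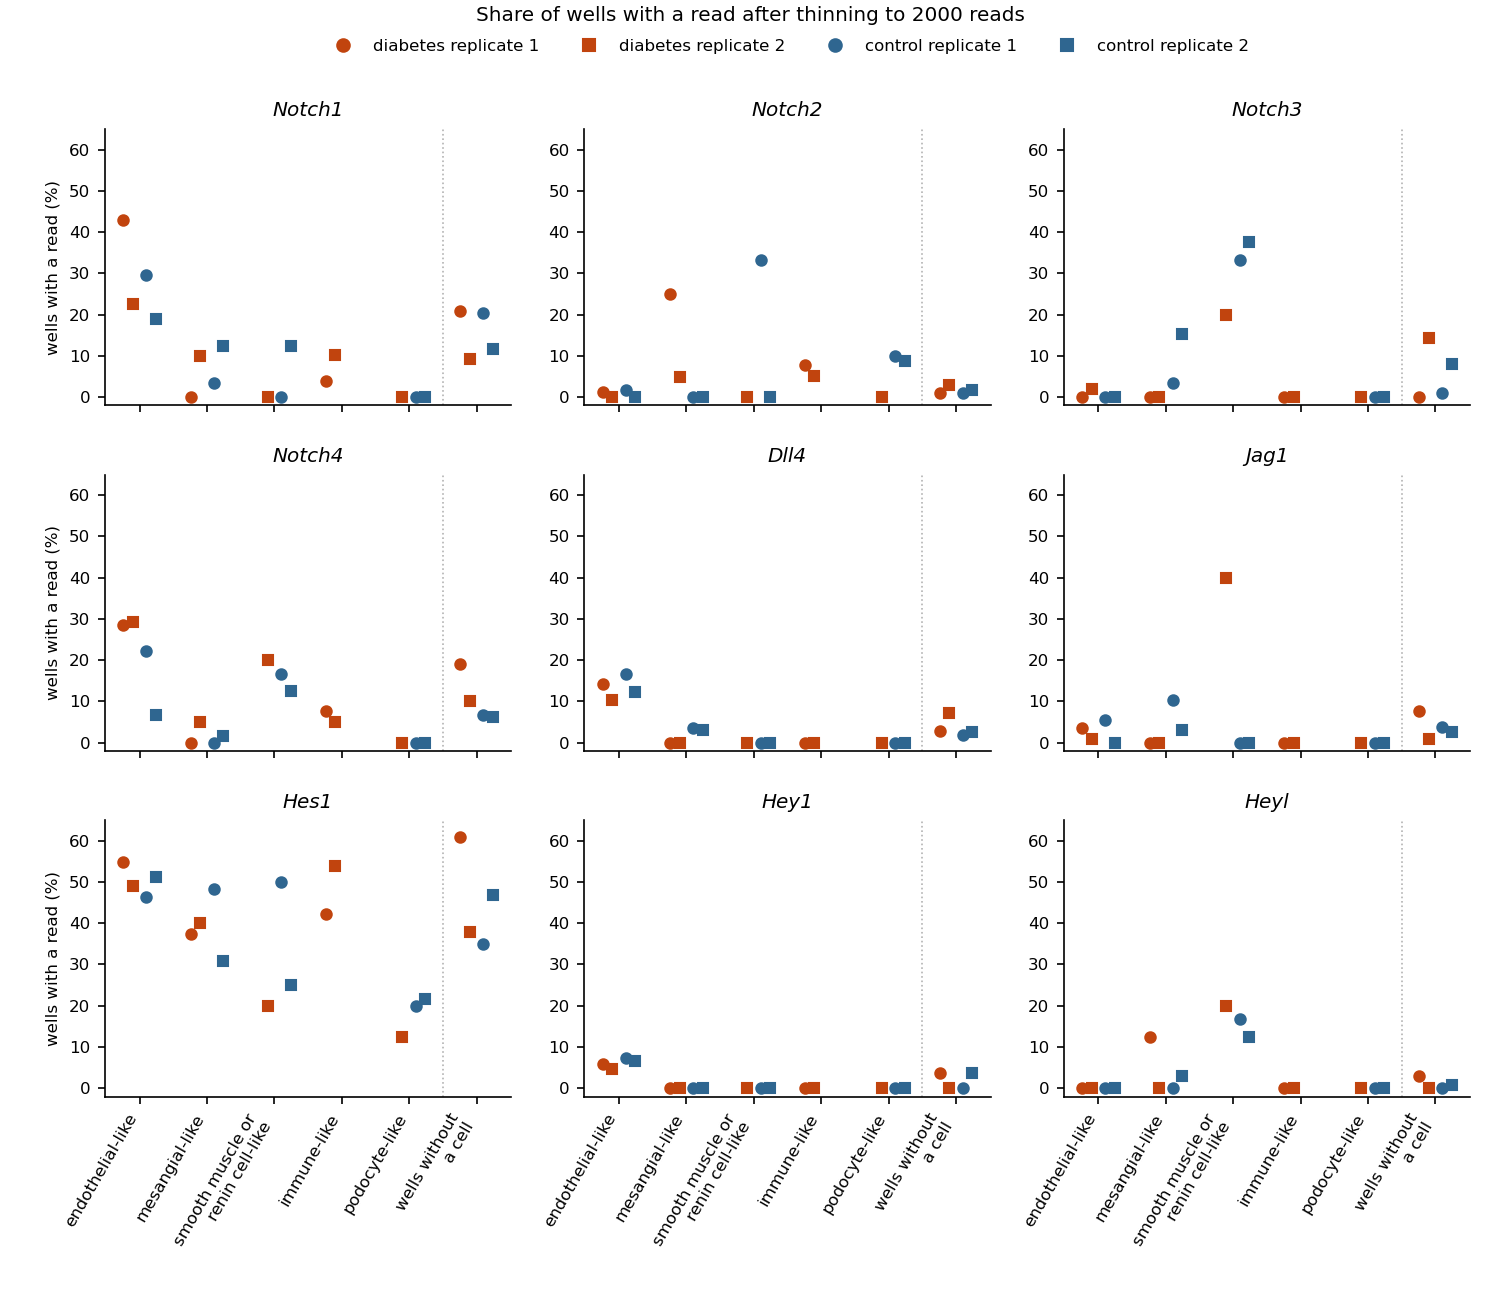
Percentage of wells with at least 1 read of each Notch gene after thinning to 2000 reads (y axis; wells with fewer reads are left out, so that 105 of 184 empty wells in diabetes and 103 of 195 in control stay in experiment 1), by class of well (x axis), 1 point per pool; orange is diabetes, blue is control, circles are experiment 1 and squares experiment 2. Notch1, Dll4 and Hey1 were drawn from endothelial-like wells in all 4 pools, and the shares of Hes1 overlap those in wells without a cell.

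The genes most like each member were found by Pearson's r of log2(CPM + 1) over 16 sums of class and pool, among 7310 genes; the sums of a pool share array and depth, and these values carry no test. Notch3 was most like Rbpms2 (r = 0.946) and Acta2, the actin of smooth muscle (r = 0.931). Heyl was most like Map7d2 (r = 0.939) and Higd1b (r = 0.92). Notch1 was most like Afdn (r = 0.939), Notch4 most like Ptprg (r = 0.858), Dll4 most like the sphingosine phosphate receptor S1pr1 (r = 0.902) and Hey1 most like 3110099E03Rik (r = 0.958). Jag1 was most like Serpinh1 and Mcam (r = 0.907 each), Hes1 most like Ube2d2a (r = 0.859) and Notch2 most like Pi4k2a (r = 0.855). Within the Notch genes the highest values were Dll4 with Hey1 (r = 0.835), Notch1 with Dll4 (r = 0.731) and Notch3 with Heyl (r = 0.728), and the lowest was Notch1 with Notch2 (r = -0.586).

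Within endothelial-like wells, a receptor read and a ligand read were found in the same well in 23 of 84 and 68 of 106 wells in diabetes, and in 20 of 55 and 50 of 90 wells in control. Reads of both Notch4 and Dll4 were in 17 and 59 of those wells in diabetes and in 8 and 30 in control. The median number of Notch genes detected per well was 3 and 4 in diabetes and 2 and 3 in control, each higher in experiment 2, which was sequenced deeper.

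The comparison of diabetes with control asks which Notch genes change at 10 weeks of age within a cell class. In endothelial-like wells, 84 and 106 in diabetes and 55 and 90 in control, Notch4 was the only Notch gene whose 2 diabetes pools both lay above the 2 control pools, and none had both diabetes pools below. The direction of Notch4 was the same in both experiments, with ratios of diabetes to control of 1.61 and 2.14. The fitted log2 fold change was 0.92 with a standard error of 0.37 (edgeR's quasi-likelihood test, unadjusted p = 0.0352, adjusted p = 1), so Notch4 did not pass the threshold of 0.05. No Notch gene was called, and Notch4 was the only one of the 8 tested with an unadjusted p under 0.05, by edgeR and by DESeq2. Here and below, counts of genes under that unadjusted limit are not read as results about the Notch genes. The number of all genes under it is given only for edgeR in mesangial-like wells. DESeq2 called 86 genes (0.657%). Of all 13086 genes tested there, 3 (0.0229%) were called by edgeR. Both diabetes pools lay above both control pools for 16% of all genes, against 1 of the 8 Notch genes. They lay below for 14.4% of all genes, against none of the Notch genes. With 2 pools against 2, an exact permutation test cannot give a p under 0.333.

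Notch4 was read in 57.1% of the endothelial-like wells (48 of 84, exact 95% interval 45.9 to 67.9%) and 84.9% (90 of 106, 76.7 to 91.1%) in diabetes, against 40% (22 of 55, 27.0 to 54.1%) and 54.4% (49 of 90, 43.6 to 65%) in control. The intervals cover counting error only. After thinning to 10000 reads the shares were 48.1% and 48.1% of 77 and 106 wells deep enough in diabetes and 39.1% and 20% of 46 and 90 in control, and after thinning to 2000 reads 28.6% and 29.2% in diabetes and 22.2% and 6.67% in control. Empty wells thinned to 2000 reads had 19% and 10.2% in diabetes and 6.80% and 6.31% in control, so the control pool of experiment 2 was near its background. Thinned to 10000 reads, empty wells had 35.7% (5 of 14) and 44.6% (41 of 92) in diabetes and 0% (0 of 17) and 28.6% (30 of 105) in control. At that depth the control pool of experiment 2 was below its background. In endothelial-like wells both depths gave the same order as the CPM, with diabetes above control in each experiment.

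The difference in Notch4 was also present in wells in which no cell was imaged, with 85.8 and 92.0 CPM in diabetes and 28.7 and 66.9 CPM in control, ratios of 2.99 and 1.37. What part of the endothelial-like difference such background RNA holds was not tested. Among endothelial-like clusters, cluster 3 had 196.4 and 322.4 CPM in diabetes and 129.3 and 69.2 CPM in control, on 36 and 35 wells in diabetes and 35 and 26 in control. Cluster 1 did not separate the groups, with 244.6 and 199 CPM in diabetes and 260.4 and 25.9 CPM in control. Cluster 2 did not separate them either, with 62.4 CPM in the diabetes pool of experiment 1 and 42.6 and 137.1 CPM in control, so cluster 3 was the only one of the 3 clusters with no overlap. The clusters contribute unequally: cluster 1 held 43 and 68 of the endothelial-like wells in diabetes and 10 and 14 in control, and cluster 2 held 5 and 3 in diabetes and 10 and 50 in control.

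**Figure D3:**
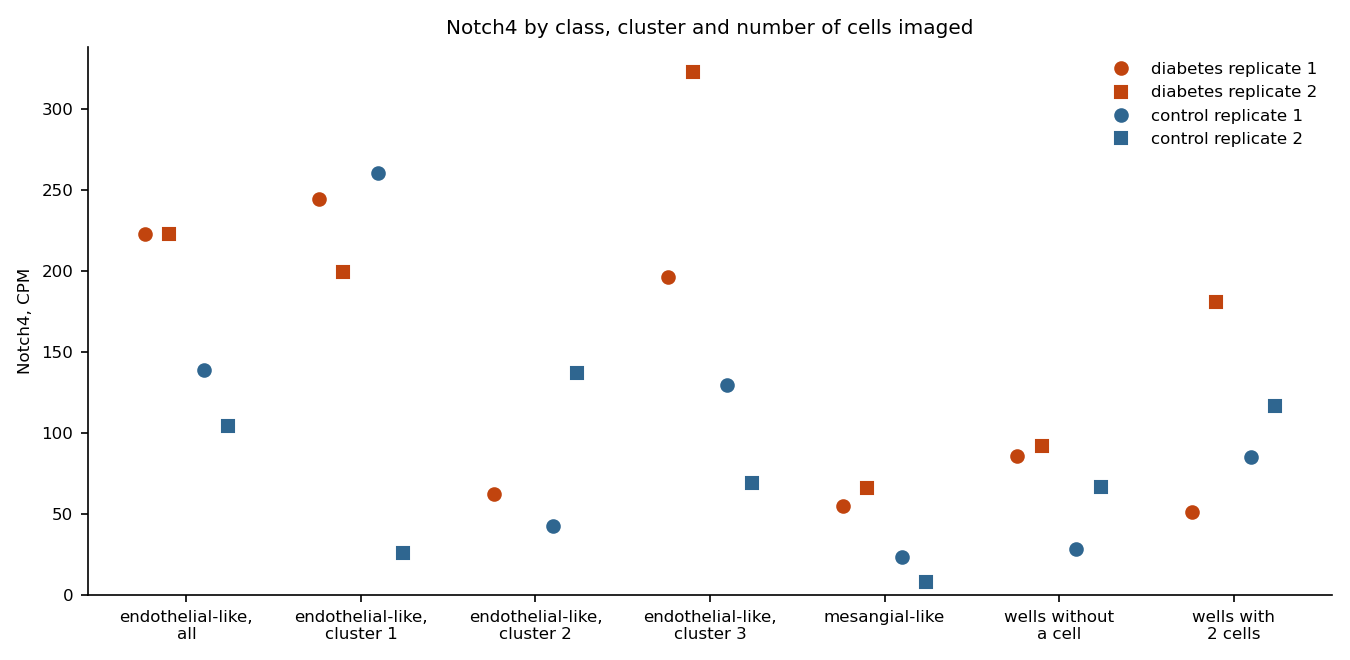
Notch4 in CPM (y axis) in endothelial-like wells as a whole and by cluster, in mesangial-like wells, in wells without a cell and in wells with 2 cells (x axis), 1 point per pool with at least 5 wells; orange is diabetes, blue is control, circles are experiment 1 and squares experiment 2. The diabetes pools lie at 222.7 and 222.8 CPM in endothelial-like wells, above the control pools at 138.7 and 104.1 CPM, and the groups overlap in clusters 1 and 2 and in wells with 2 cells.

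The other Notch genes gave no separation in endothelial-like wells. Notch1, given above, was lower in diabetes than in control within each experiment, by ratios of 0.883 and 0.769, but the experiments lay farther apart than the conditions (log2 fold change -0.25, standard error 0.31; edgeR adjusted p = 1). Dll4 had ratios of 1.74 and 0.787, Jag1 of 0.949 and 1.90, Hes1 of 1.01 and 0.665 and Hey1 of 0.746 and 1.25, each with opposite directions in the 2 experiments. Their log2 fold changes ran from -0.26 for Hes1 (standard error 0.27) to 0.46 for Jag1 (standard error 0.75), with edgeR adjusted p = 1 for each. For Notch2 and Notch3 the log2 fold changes were 0.32 and 0.55 with standard errors of 2.05 and 3.52, so a change of several fold either way lay within the error. The value of Notch3 was 2.84 without the experiment as a block and 2.50 to 3.83 when the diabetes pool of experiment 1 or either control pool was left out. Without the diabetes pool of experiment 2 Notch3 had too few reads to be tested, as had Heyl in the full comparison. DESeq2 called none of the Notch genes in endothelial-like wells either, and its smallest adjusted p there was 0.47, for Notch4.

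The marker lists moved as well in the endothelial-like sums. Mesangial markers summed to 4363 and 1839 CPM in diabetes and 8810 and 5262 CPM in control, with 8 of 10 lower in both diabetes pools. Immune markers summed to 434.5 and 278 CPM in diabetes and 134 and 101.9 CPM in control, with 8 of 14 higher in both diabetes pools. Erythroid markers took 11670 CPM in the diabetes pool of experiment 1, 28.2 CPM in the other diabetes pool, and 0 and 23.6 CPM in control. Fibroblast markers were low but also higher, at 109.6 and 61 CPM in diabetes and 3.97 and 37.9 CPM in control, with 2 of 6 higher in both diabetes pools. No marker of these 4 lists was at 0 in all pools, and their part in the Notch values was not tested.

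**Figure D4:**
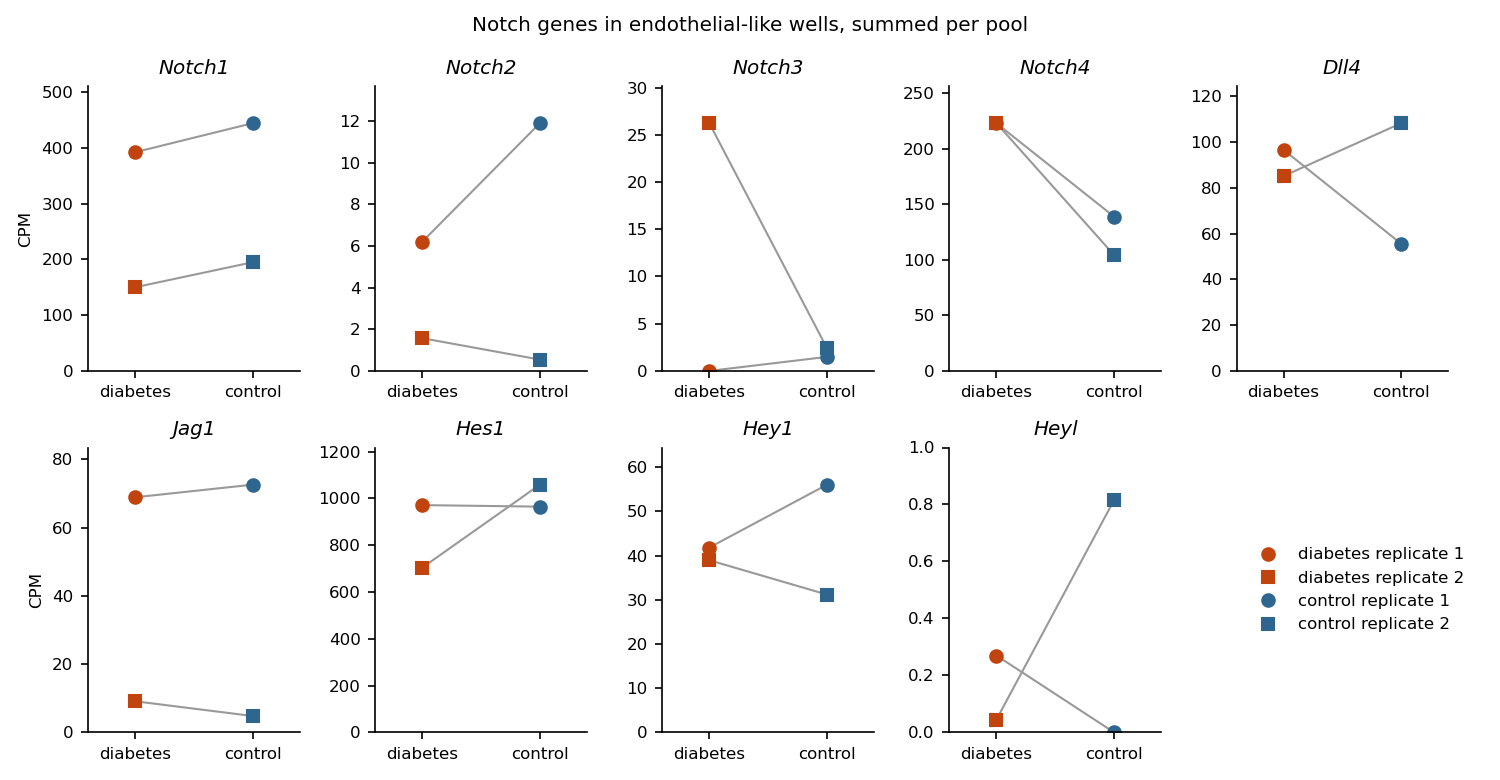
CPM of each Notch gene (y axis, from 0, scaled per gene) in endothelial-like wells summed per pool, diabetes left and control right; lines join the 2 pools of an experiment, circles are experiment 1 and squares experiment 2. The lines of Notch4 both fall from left to right, while those of Dll4, Jag1, Hes1 and Hey1 run in opposite directions.

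In mesangial-like wells, 8 and 20 in diabetes and 29 and 65 in control, Hes1 and Dll4 had both diabetes pools below both control pools, and Notch4 had both above. Hes1 had 254.3 and 370.6 CPM in diabetes and 2183 and 510.4 CPM in control, and the control pool of experiment 1 stood far above the other 3. Its log2 fold change was -1.75 with a standard error of 0.68 (edgeR unadjusted p = 0.0303, adjusted p = 1). Without the diabetes pool of experiment 2 it was called, at a log2 fold change of -2.43 (edgeR adjusted p = 0.0375); that fit has no term for the experiment and assumes that the lone diabetes pool varies as the control pools do. Without the control pool of experiment 1 its log2 fold change was -0.69 and it was not called, and over all alternatives its adjusted p ran from 0.0375 to 1.

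Dll4 had 3.20 and 1.56 CPM in diabetes and 21 and 29.7 CPM in mesangial-like wells of the control pools, and a single well gave 72.0% of the reads of the control pool of experiment 2. Its log2 fold change was -3.52 with a standard error of 2.41 (edgeR adjusted p = 1). Notch4 had 55.2 and 66.2 CPM in diabetes and 23.5 and 7.93 CPM in control, on reads in 2 and 10 wells in diabetes and 2 and 20 in control, of which the top well gave 68.1% and 79.6% in diabetes and 66.7% and 26.8% in control. Its log2 fold change was 2.17 with a standard error of 1.53 (edgeR adjusted p = 1). A single well thus gave most of the Notch4 reads in 3 of the 4 pools, while in the control pool of experiment 2 they were spread over more wells. In each pool the mesangial-like Notch4 value was below that of the empty wells, at 85.8 and 92.0 CPM in diabetes and 28.7 and 66.9 CPM in control. For Dll4 the empty wells had 20.3 and 84.1 CPM in diabetes, above the mesangial-like values. In control they had 9.26 and 21.8 CPM, below the mesangial-like values. The part of such background RNA in these differences was not tested.

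Notch1, Notch2, Notch3, Jag1 and Heyl overlapped between the groups in mesangial-like wells. Notch1 had 3.20 and 90.4 CPM in diabetes and 51.9 and 106.6 CPM in control (log2 fold change -1.83, standard error 1.47). Notch3, given above, was lower in diabetes within each experiment, by ratios of 0.661 and 0.755 (log2 fold change -0.47, standard error 1.1). Jag1 had 33.6 and 16.3 CPM in diabetes and 52.9 and 26.5 CPM in control, ratios of 0.635 and 0.616 (log2 fold change -0.65, standard error 1.47). Notch2, given above, had a log2 fold change of 1.19 (standard error 1.5) and Heyl of 1.30 (standard error 7.98). All 5 had an edgeR adjusted p = 1, and Hey1 had too few reads to be tested. No gene of the 10502 tested in mesangial-like wells was called by edgeR (0%), while 374 had an unadjusted p under 0.05, Hes1 among them, and DESeq2 called 79 (0.752%), none of them a Notch gene and with 1 Notch gene under an unadjusted p of 0.05. Of all genes tested, 13.3% had both diabetes pools higher and 19.7% both lower, against 1 and 2 of the 8 Notch genes tested. Markers of smooth muscle and renin cells summed to 1338 and 1481 CPM in diabetes and 723.3 and 331.1 CPM in control in these sums, with 2 of 7 higher and none lower in both diabetes pools and Cnn1 at 0 in all pools. That class had the second-highest mean Notch4, but there a single well gave from 92.1% to 100% of the Notch4 reads of each pool used. Mesangial markers summed to 13200 and 16600 CPM in diabetes and 20550 and 17500 CPM in control, with 7 of 10 lower and 1 higher in both diabetes pools. Both of these sums separated the groups. Podocyte markers, at 267.2 and 1503 CPM in diabetes and 1070 and 1221 CPM in control, overlapped, with 4 of 12 lower in both diabetes pools. Fibroblast markers summed to 13950 and 1726 CPM in diabetes and 4988 and 1313 CPM in control, with none of 6 higher and 1 lower in both diabetes pools. Finer clustering (resolution 1.2) gave a fibroblast-like cluster of 4 and 9 wells in diabetes and 3 and 3 in control. Mesangial-like wells then numbered 4 and 12 in diabetes and 27 and 62 in control, so these sums may mix cell types unequally, which was not tested. Endothelial markers, which belong to the named class where Dll4 and Notch4 were highest, summed to 1410 and 2294 CPM in diabetes and 1975 and 2848 CPM in control, with 3 of 14 lower and none higher in both diabetes pools. The part of any of these lists in the values was not tested.

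Whether the effect of diabetes differed between endothelial-like and mesangial-like wells was tested as an interaction over 13129 genes, of which edgeR called 2 (0.0152%) and no Notch gene. Dll4 had the smallest p of the Notch genes: its log2 fold change in endothelial-like wells exceeded that in mesangial-like wells by 3.84 with a standard error of 1.63 (edgeR unadjusted p = 0.0237, adjusted p = 1). For Hes1 the difference was 1.54 with a standard error of 0.76 (edgeR unadjusted p = 0.05, adjusted p = 1), and it ran from 0.46 without the control pool of experiment 1 to 2.62 without the control pool of experiment 2, with no call (edgeR adjusted p = 1 in both). For Notch4 it was -1.21 with a standard error of 1.07 (edgeR adjusted p = 1), so a difference in its response between the classes was not shown. By DESeq2, 37 genes (0.282%) and no Notch gene were called, and Dll4 had the only unadjusted p under 0.05 among the Notch genes. For Notch1 the difference was 1.29 with a standard error of 1.94 (edgeR adjusted p = 1), and it was called when the diabetes pool of experiment 2 was left out (difference 4.96, edgeR adjusted p = 0.0471), but not when any other pool was.

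Over all 639 kept wells Notch4 had 133 and 152.1 CPM in diabetes and 70.5 and 62.5 CPM in control, with no overlap and ratios of 1.89 and 2.44 within the experiments. Its log2 fold change was 1.16 with a standard error of 0.34 (edgeR unadjusted p = 0.013, adjusted p = 0.539; DESeq2 adjusted p = 0.111). It was the only one of the 9 Notch genes with an unadjusted p under 0.05 by either tool, and none was called. In such sums more endothelial-like wells and more Notch4 per cell cannot be told apart, and 84 of 128 and 106 of 188 kept wells were endothelial-like in diabetes against 55 of 120 and 90 of 203 in control. Hey1 also had both diabetes pools higher, at 24.2 and 26.6 CPM against 23.7 and 15.0 CPM in control, with a ratio of 1.02 in experiment 1. Hes1 had 862.2 and 604.9 CPM in diabetes and 1085 and 804.9 CPM in control, lower in diabetes within each experiment but overlapping across them. edgeR called 12 of 15330 genes (0.0783%), or 1 without the experiment as a block, and 15.9% of all genes had both diabetes pools higher and 17.8% both lower, against 2 and none of the 9 Notch genes.

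**Figure D5:**
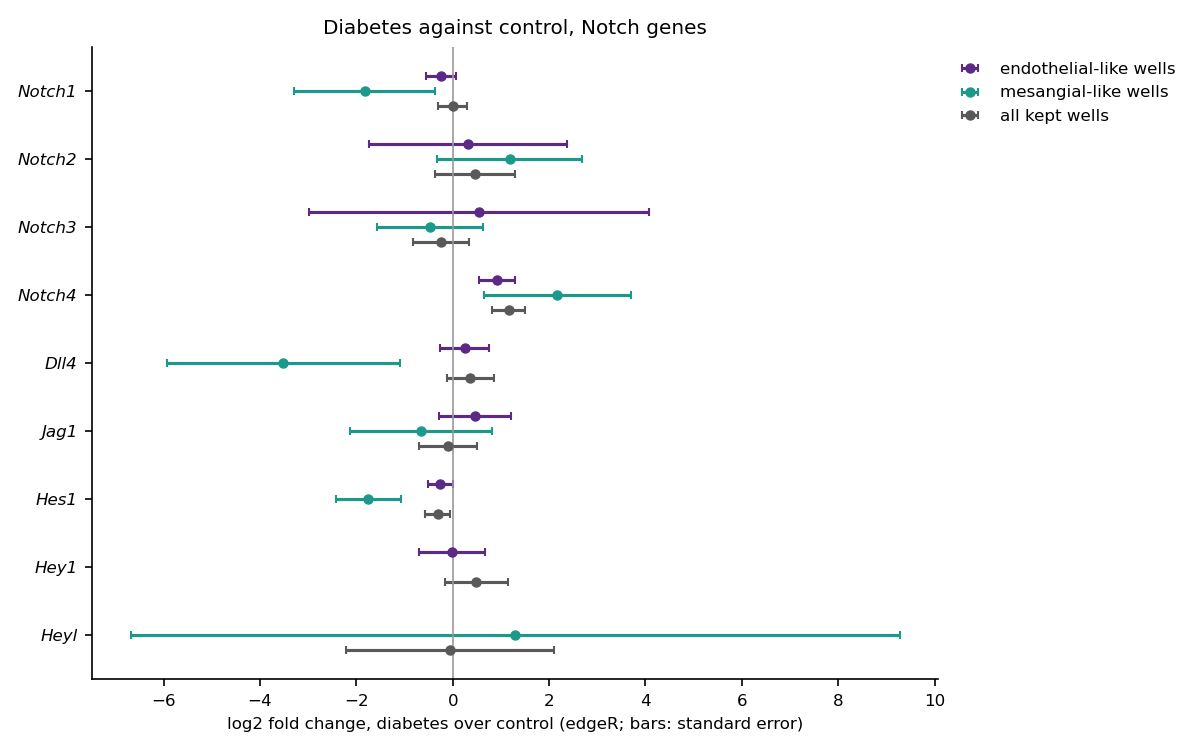
Log2 fold change of diabetes over control for each Notch gene (x axis) in endothelial-like wells (purple), mesangial-like wells (green) and all kept wells (grey), from edgeR with the experiment as a block; bars are the standard error, and no point means that the gene had too few reads to be tested. The 3 points of Notch4 lie above 0, at 0.92, 2.17 and 1.16, and no gene passed the threshold.

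Immune-like and podocyte-like wells could not be compared, because 1 or more pools held fewer than 5 of them (26 and 39 immune-like wells in diabetes against 4 and 4 in control, and 1 and 8 podocyte-like wells in diabetes against 20 and 23 in control). In immune-like wells of the diabetes pools Notch1 had 24.1 and 53.2 CPM, Notch2 30.3 and 21.3 CPM and Notch4 17 and 21.6 CPM, while Heyl was at 0 and 0.902 CPM and Dll4 at 0.523 and 2.58 CPM. Podocyte-like wells had Hes1 at 98.2 CPM in the diabetes pool of experiment 2 and 240.3 and 373.2 CPM in the control pools, and Notch2 at 30 CPM in that diabetes pool and 10.1 and 27.7 CPM in the control pools.

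A wider list of 55 genes of the pathway was described in the same fits. In endothelial-like wells 44 of them had enough reads to be tested, 28 with a positive and 16 with a negative log2 fold change and a median of 0.20, beside a median of 0.05 over all genes tested, and none passed the test (edgeR, 2 with an unadjusted p under 0.05; DESeq2, none called and 5 under it). In mesangial-like wells 38 were tested, 11 positive and 27 negative with a median of -0.44, beside -0.16 over all genes, and again none passed (edgeR, 1 with an unadjusted p under 0.05; DESeq2, none called and 2 under it). Both diabetes pools lay above both control pools for 5 of the 44 in endothelial-like wells and 6 of the 38 in mesangial-like wells, and below for 7 and 12, beside the shares of all genes given above. The Notch genes themselves had medians of 0.28 and -0.56 over the 8 tested in each class.

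Of the genes of receptor processing (furin, ADAM proteases and gamma-secretase subunits), 9 of 10 had a positive log2 fold change in endothelial-like wells, beside 52.2% of all genes tested. Ncstn among the 9 was at 0.005 (standard error 0.62). In mesangial-like wells 2 of the 7 tested were positive and 5 negative, beside 44.9% positive over all genes, and none passed the test in either class (edgeR). Psen2, a catalytic subunit of gamma-secretase, had 87.2 and 205.8 CPM in diabetes and 41.2 and 82.5 CPM in control, with a log2 fold change of 1.24 and a standard error of 0.43 (edgeR unadjusted p = 0.0194, adjusted p = 1). Its 2 diabetes pools lay above both control pools, and in the control pool of experiment 1 a single well gave 57.8% of its reads. Adam10, an ADAM protease that cuts the receptor, had 247.4 and 144.6 CPM in diabetes and 228 and 105.1 CPM in control, which overlap. Psenen, another subunit of gamma-secretase, had 107.9 and 182.9 CPM in diabetes and 75.4 and 147.2 CPM in control, which overlap as well.

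Of the enzymes that add sugars to the receptors, Pofut1, which adds fucose, had 21.9 and 17.1 CPM in diabetes and 67.7 and 46.1 CPM in control in endothelial-like wells (log2 fold change -1.50, standard error 0.72; edgeR adjusted p = 1). Its groups did not overlap, and the fringe enzyme Mfng, at 55.9 and 76.5 CPM in diabetes and 50.1 and 64.3 CPM in control, did overlap. Of the genes of receptor and ligand turnover, Numb, an inhibitor of Notch, had 316.4 and 290.8 CPM in diabetes and 322.2 and 308 CPM in control, a log2 fold change of -0.02 (standard error 0.31; edgeR adjusted p = 1). Jag2, a further Jagged ligand, had 54.5 and 29.2 CPM in diabetes and 46.1 and 16.5 CPM in control, higher in diabetes within each experiment.

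In the nuclear complex, the co-repressor Ncor1 overlapped between the groups, at 306.8 and 166.6 CPM in diabetes and 191.2 and 276.6 CPM in control in endothelial-like wells. Maml3, a Mastermind co-activator, was the only gene of the wider list called under any setting, by DESeq2 over all kept wells (log2 fold change -2.02, DESeq2 adjusted p = 0.00299; edgeR adjusted p = 0.235). It had 18.1 and 31 CPM in diabetes and 83.0 and 123.3 CPM in control there. Within classes it had 25.8 and 20.8 CPM in diabetes and 71.5 and 66.1 CPM in control in endothelial-like wells, and 41.6 and 26.8 CPM in diabetes and 90.5 and 199.1 CPM in control in mesangial-like wells, with no overlap in either class. DESeq2 called 562 of 15330 genes (3.67%) over all kept wells.

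Of the other targets, Nrarp, a feedback inhibitor of Notch, had 12.8 and 14.1 CPM in diabetes and 0 and 0.425 CPM in control in mesangial-like wells (log2 fold change 5.68, standard error 2.69; edgeR adjusted p = 1). In endothelial-like wells it had 28.1 and 7.33 CPM in diabetes and 0.992 and 11.6 CPM in control, which overlap. In mesangial-like wells the named genes Nrarp and Numb had both diabetes pools above the control pools, and Pofut1, Itch, Mib1, Ctbp1, Maml3, Psenen and Adam10 had both below. Dll1 had too few reads there to be tested, at 0 and 0 CPM in diabetes and 9.80 and 0.0708 CPM in control. Mib1, the ubiquitin ligase that activates the ligands, had 33.9 and 12.3 CPM in diabetes and 97.9 and 57.2 CPM in control there (log2 fold change -1.87, standard error 1.26; edgeR adjusted p = 1).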

How the data were processed

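The deposited gene tables, 1 per experiment, hold expected counts per gene and well, made by the authors on mm10 with featureCounts 1.5.1, STAR 2.4.2a, cutadapt 1.11 and BWA 0.7.17-r1188, per the submitters' processing notes. Not given in the sources used here are the role and order of these tools, the annotation, the strand setting and the splitting of reads that match several genes. For the Notch genes 89.7% to 99.4% of the expected counts above 0 were whole. Reads are not independent molecules, since no molecular identifiers were counted. No deposited column was left unmapped to a sample.

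Genes were named through GENCODE M21 (45229 of 45792 identifiers matched). Wells with 1 imaged cell, at least 500 genes and at most 30% mitochondrial reads were scaled to counts per 10000, and 2000 variable genes without the Notch list, centred within each experiment, gave 15 principal components, 15 neighbours and Leiden clusters at resolution 0.8 (scanpy 1.11.5, igraph 0.11.9, numpy 2.4.6, Python 3.11.15). A cluster took a class name if at least 3 of its markers were detected in 25% of wells and if that class led the 50 leading genes and had more markers in the top 10 than any other; these limits and the ranking by mean log2 difference were set after the clusters were seen. No doublet caller was run, because imaging gave the number of cells. The members, gene lists and tests were chosen with earlier results of these data known.

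Expected counts were summed per class and pool, rounded to whole numbers and tested with edgeR 4.0.16 (quasi-likelihood, robust, TMM, filterByExpr) in R 4.3.3, with the experiment as a block and Benjamini-Hochberg adjustment over all genes tested at 0.05. The edgeR fit was also run on simulated counts with large changes set only among the more highly read genes, so that run does not check genes with few reads. DESeq2 1.42.0, RLE scaling, no filter, no block, a mitochondrial limit of 15%, resolution 1.2, thinning to 10000 reads and leaving out each pool were tried as alternatives. Pools of the same number share an array and an experiment, per the labels, and their deviations from the group means had correlations of 0.201 in endothelial-like, 0.115 in mesangial-like and 0.282 in all kept wells. All 9 members were named, with the wider list's called genes and otherwise up to 3 genes per sub-list by mean level.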

Additional observations from a re-analysis of the deposited data

How the results depend on the processing

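No Notch gene was called under any alternative that kept all 4 pools, and Notch4 stayed above 0 in endothelial-like, mesangial-like and all kept wells under all alternatives that gave it a value; in mesangial-like wells thinned to 10000 reads it had too few reads to be tested. The number of Notch genes with the same highest named class in every pool, 4, ran from 3 to 6. At resolution 1.2 it was 3, with Notch4 highest outside the endothelial-like wells in control replicate 2. The numbers of all genes called moved by over 1.5 times. Without the filter on low counts 19, 12 and 36 genes were called in endothelial-like, mesangial-like and all kept wells; DESeq2 called 86, 79 and 562, and 37 for the difference between the classes. With at most 15% mitochondrial reads 1, 5 and 0 were called, and 0 for the difference. At resolution 1.2, 1 was called in endothelial-like wells. Resolution 1.2 gave a fibroblast-like cluster and left 4 mesangial-like wells in diabetes replicate 1, under the minimum. An alternative with at least 4 wells was therefore added after seeing the data, which called 1 in mesangial-like wells and 1 for the difference. After thinning to 10000 reads 12 were called in mesangial-like and 30 in all kept wells. Without the replicate block 1 was called in all kept wells and 0 for the difference, and no call of a Notch gene changed. Leaving out each pool in turn gave 18 to 87, 5 to 214, 9 to 170 and, for the difference, 2 to 41 genes called, and 0 to 1 Notch genes in mesangial-like wells and for the difference, namely Hes1 and Notch1, each without diabetes replicate 2.

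Signs turned under some alternatives, also where the log2 fold change had been above 1 in size: Notch1 (-1.83) and Heyl (1.30) in mesangial-like wells, and Notch1 (1.29), Notch3 (1.25), Jag1 (1.151) and Heyl (-2.29) for the difference between the classes. In endothelial-like wells Notch2 turned without the block (-0.59), Notch3 at 15% mitochondrial reads (-0.023) and at resolution 1.2 (-0.25), and, after thinning, Dll4 (-0.065) and Hey1 (0.024). In mesangial-like wells Notch3 was 0.25 at resolution 1.2 with at least 4 wells. In all kept wells Notch1 was 0.007 with RLE and with DESeq2, 0.034 without the block and 0.31 after thinning, Notch3 was 0.16 after thinning, Jag1 was 0.055 without the block and 0.12 at 15% mitochondrial reads, and Heyl was 0.25 and 0.13 in those settings. For the difference between the classes, thinning gave -0.19 for Notch1 and -0.057 for Hey1, and resolution 1.2 with at least 4 wells gave -0.37 for Notch3 and -0.74 for Hey1. Leaving out each pool in turn, without a term for the experiment except in the difference between the classes, gave these ranges. In endothelial-like wells they were -0.91 to 0.35 for Notch1, -1.72 to 2.67 for Notch2, 2.50 to 3.83 for Notch3, -0.33 to 0.84 for Dll4, -1.84 to 2.85 for Jag1 and -0.34 to 0.30 for Hey1. In mesangial-like wells they were -4.71 to 0.32 for Notch1, -1.46 to 0.48 for Notch3, -2.67 to -0.69 for Hes1 and -3.58 to 9.46 for Heyl. In all kept wells they were -0.43 to 0.38 for Notch1, -0.087 to 1.04 for Notch2, -1.36 to 0.73 for Notch3, -0.29 to 1.01 for Dll4, -1.38 to 1.03 for Jag1 and -2.11 to 1.97 for Heyl. For the difference they were -1.29 to 4.96 for Notch1, -2.24 to 0.59 for Notch2, -5.39 to 3.54 for Notch3, -0.35 to 2.63 for Jag1, 0.46 to 2.62 for Hes1, -4.11 to 4.65 for Hey1 and -5.61 to 0.57 for Heyl. The cause was not tested in any of these. Immune-like and podocyte-like wells gave no fit under any setting.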

Other observations

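Wells in which 2 cells were imaged numbered 20 and 20 in diabetes and 12 and 36 in control, and entered no comparison above. Dll4 had 64.6 and 83.2 CPM there in diabetes and 2.93 and 50.2 CPM in control, and Hey1 had 63.7 and 48.1 CPM in diabetes and 0 and 7.43 CPM in control. For both genes the 2 diabetes pools lay above the 2 control pools, which was not so in endothelial-like wells with 1 cell. For Notch2 and Notch3 both diabetes pools lay below both control pools: Notch2 had 2.62 and 3.34 CPM in diabetes and 10.2 and 14.9 CPM in control, and Notch3 had 0 and 4.68 CPM in diabetes and 5.85 and 21.4 CPM in control. In experiment 1 some of these values rest on few reads. Notch2 had 3 reads in diabetes and 7 in control, and Notch3 had 0 and 4, the control reads of each in a single well. Dll4 had 2 reads in that control pool. Of the 8 Notch genes that passed the low-count filter in these wells 2 thus lay above and 2 below, beside 15.8% and 17.1% of all 10971 genes that passed it. Notch4 overlapped between the groups in these wells, at 51.5 and 180.7 CPM in diabetes and 85.1 and 116.8 CPM in control. Of the same 8 genes 3 were higher and 3 lower in diabetes in both experiments, beside 24.6% and 25.9% of all genes, and Heyl had too few reads. The cell types in wells with 2 cells were not assigned, and the differences were not tested.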
